A study of Mus musculus with 6 samples.

Results

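The LIM kinases, the cofilins with a cofilin phosphatase, and the ERM proteins with their relative merlin were followed on 6 arrays as a set of 9 genes. The members were Limk1, Limk2, Cfl1, Cfl2, Ssh1, Ezr, Rdx, Msn and Nf2, which are 9 of 22311 measured genes and 10 of 35399 probe sets. The set was chosen by an earlier reading of the same arrays, in which Limk1 and Ezr had lower values in tetraploid cells. The ploidy values of these 2 genes are therefore given as a description, without a test. Where a gene had several probe sets, the brightest on average stands for it, and Rdx was the only member with a further probe set.

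The cells were mouse bone marrow mesenchymal stromal cells, assigned to ploidy classes by DNA content (propidium iodide staining) and by chromosome painting, and each of the 6 cultures gave 1 array. The tetraploid cultures comprised a primary culture (I), a cell line (II) and a clone in which tetraploidy was artificial (III). The diploid cultures comprised a clone (I) and a pair of primary cultures (II and III). Single clones and lines stand for 1 derivation each, and the labels name neither the strain, age and sex of the animals, nor whether the cultures came from separate animals. All p-values thus measure the spread between these cultures. The values are log2 expression after RMA, which corrects background, normalises the arrays and summarises each probe set, so that a difference of 1 is a 2-fold change.

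LIM kinases phosphorylate cofilin and so switch off its severing of actin filaments, while slingshot phosphatases such as the product of Ssh1 remove that phosphate. Ezrin, radixin and moesin, the ERM proteins, tie the actin cortex to the plasma membrane through an amino-terminal FERM domain and a carboxy-terminal actin-binding site, and merlin, the tumour suppressor product of Nf2, shares the FERM domain. These proteins shape the cortex during cell spreading, migration and mitotic rounding, and their activity is set largely by phosphorylation, which RNA arrays do not measure.

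Diploid III and tetraploid II stood apart from the other arrays. The interquartile range of diploid III was 2.75, against 3.16 to 3.24 on the others, and its median was 4.78, against 4.54 to 4.69. Of 15 stromal markers, 10 to 13 lay above the array median on each array, among them Pdgfrb, Prrx1 and Col1a1 on all 6, whereas Lepr and Lum lay below it on all 6. Thy1 lay below the array median in tetraploid II (3.96) and diploid III (4.35), Eng in tetraploid II (3.80), Nt5e in tetraploid I (3.90), tetraploid II (4.14) and diploid III (3.95), and Dcn in tetraploid I, tetraploid III and diploid I (4.20 to 4.31). The 10 endothelial markers had a mean log2 value of 5.80 in diploid III, against 3.82 to 4.33 in the tetraploid and 4.22 to 4.31 in the other diploid cultures. In diploid III, 4 of them lay above the array median, with Cdh5 at 11.03 and Flt1 at 7.32, while Pecam1 (4.18), Kdr (3.63) and Tek (3.63) lay below it. The 10 myeloid and lymphoid markers averaged 3.94 to 4.54 in the tetraploid and 3.86 to 4.45 in the diploid cultures, with Ptprc and Itgam below the median on all arrays. Cd14 lay above it on all 6 and reached 7.46 in diploid III, and Cd68 (7.97) and Lyz2 (7.0004) were highest in tetraploid II. The 9 epithelial markers, included because ezrin is abundant in epithelia, averaged 3.97 to 4.66 and 4.13 to 4.56, with Epcam and Cdh1 below the median on all arrays and Krt19 above it on all 6 (5.18 to 9.55). The 10 proliferation genes averaged 5.96 to 6.84 in the tetraploid and 6.68 to 7.82 in the diploid cultures, with the highest mean in diploid I. The part of these other cells and of proliferation in the values of the members was not tested.

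Limk1 and Ezr are the members whose values separated the groups by the widest margins, and their promoters are shown for that reason. Each line gives the 250 bases before a start listed by RefSeq on assembly GRCm38.p6, 5′ to 3′ on the gene's strand, with GC boxes in capitals (GGGCGG or its reverse complement CCGCCC).
Limk1, chr5:134688591-134688840, minus strand: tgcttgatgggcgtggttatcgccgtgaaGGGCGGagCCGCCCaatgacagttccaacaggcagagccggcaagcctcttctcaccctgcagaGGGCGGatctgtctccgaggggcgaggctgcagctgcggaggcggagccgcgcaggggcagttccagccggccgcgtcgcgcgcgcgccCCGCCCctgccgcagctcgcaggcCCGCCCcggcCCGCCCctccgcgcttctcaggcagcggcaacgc
Ezr, chr17:6782781-6783030, minus strand: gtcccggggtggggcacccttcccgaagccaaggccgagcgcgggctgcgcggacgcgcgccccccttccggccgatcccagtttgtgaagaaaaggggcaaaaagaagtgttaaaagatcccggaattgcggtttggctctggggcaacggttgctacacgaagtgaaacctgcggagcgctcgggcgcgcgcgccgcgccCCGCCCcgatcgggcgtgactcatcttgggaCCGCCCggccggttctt
The Limk1 window, at the more upstream of 2 listed starts, held 6 GC boxes and 31 CpG dinucleotides, the window at the other Limk1 start 0 and 2, and the Ezr window 2 and 32. The median over all 32851 RefSeq windows of this length was 6 CpG dinucleotides. A GC box on either strand occurred in 32.7% of all windows and in 8 of 14 windows of the 9 members. The CArG box of serum response factor (1.47% of all windows) and the TEAD motif GGAATG (12.6%) were in 0 of the 14 members' windows. These are letter matches in short windows and say nothing of binding.

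The LIM kinases differed from each other. Limk1 had 6.33, 5.93 and 6.48 in tetraploid I, II and III, and 7.24, 7.17 and 8.13 in diploid I, II and III. All tetraploid values lay below all diploid values, with a gap of 0.68 between the groups, and the highest value was that of diploid III. The means were 6.25 ± 0.28 and 7.51 ± 0.53 (SD, n = 3 each), a log2 difference, tetraploid minus diploid, of -1.26 (SE 0.31), or 2.40-fold less signal in the tetraploid cultures. Without diploid III the difference was -0.96, and without both tetraploid II and diploid III it was -0.80. In bulk RNA, fewer cells that express a gene and less RNA per cell cannot be told apart.

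Limk2, the paralog that acts on the same cofilin substrate, had 7.43, 7.51 and 7.16 in the tetraploid cultures and 7.72, 7.19 and 7.33 in the diploid cultures. The groups overlapped, and Limk2 had the smallest span of all members over the 6 arrays, 0.56, against 2.20 for Limk1. Its difference was -0.047 (SE 0.18; limma, adjusted p = 0.957), and it turned positive without tetraploid III (0.056) or without diploid I (0.11).

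**Figure D1:**
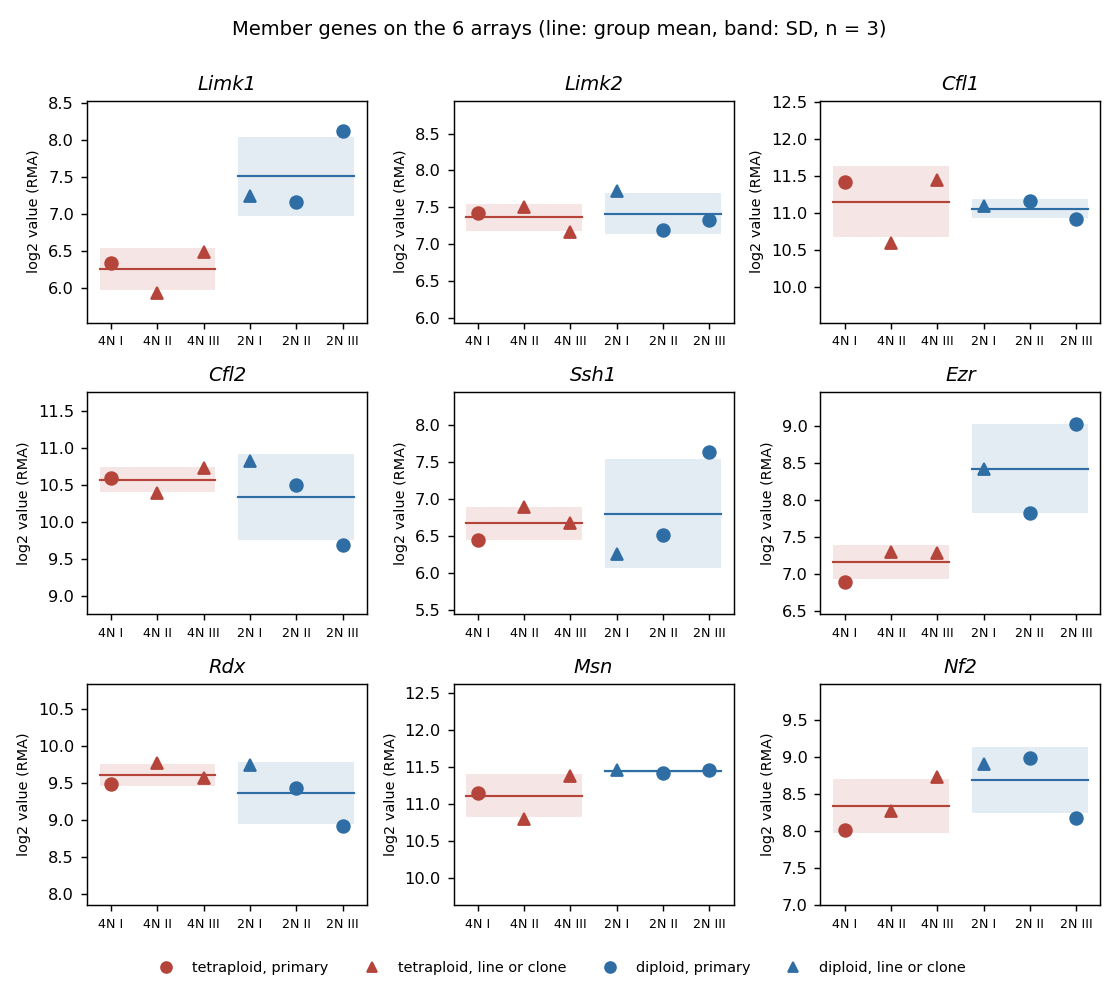
Log2 values of the 9 members on the 6 arrays, 1 panel per gene with axes of equal height. Circles are primary cultures, triangles lines or clones, lines group means and bands the SD of 3 cultures. Limk1, Ezr and, by a gap of 0.034, Msn have all tetraploid values below all diploid values.

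The cofilin genes did not separate the groups. Cfl1, the cofilin of non-muscle cells, had 11.42, 10.59 and 11.44 in the tetraploid and 11.08, 11.16 and 10.91 in the diploid cultures. Tetraploid II was the low sample, and the other tetraploid cultures lay above all diploid ones. The difference was 0.096 (SE 0.26; limma, adjusted p = 0.937), rising to 0.37 without tetraploid II and turning to -0.040 and -0.048 without tetraploid I and III.

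Cfl2, the cofilin that predominates in muscle, had 10.59, 10.39 and 10.73 in the tetraploid and 10.82, 10.50 and 9.69 in the diploid cultures. Diploid III was lowest and diploid I highest, so the tetraploid values lay inside the diploid range. Its difference was 0.23 (SE 0.31; limma, adjusted p = 0.882), and -0.088 without diploid III.

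Ssh1, which encodes the slingshot phosphatase that reactivates cofilin, had 6.45, 6.89 and 6.67 in the tetraploid and 6.25, 6.51 and 7.64 in the diploid cultures. Diploid III stood above the other 5 arrays, and the remaining diploid values lay at the lower end of the tetraploid range or below it. The difference of -0.13 (SE 0.39; limma, adjusted p = 0.944) turned to 0.29 without diploid III.

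Among the ERM genes, the tetraploid cultures were lower for Ezr and Msn and not for Rdx. Ezr, which encodes ezrin, had 6.90, 7.30 and 7.29 in the tetraploid and 8.43, 7.82 and 9.03 in the diploid cultures. Every tetraploid value lay below every diploid value, with a gap of 0.52, and diploid III was again highest. The means were 7.16 ± 0.23 and 8.42 ± 0.60 (SD, n = 3 each), a log2 difference of -1.26 (SE 0.32), or 2.40-fold less signal, and -0.96 without diploid III.

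Rdx, which encodes radixin, had 9.49, 9.77 and 9.56 in the tetraploid and 9.74, 9.42 and 8.91 in the diploid cultures. The groups overlapped and diploid III was the lowest array. The difference was 0.25 (SE 0.23; limma, adjusted p = 0.876), with 0.024 without diploid III and 0.44 without diploid I. The dimmer Rdx probe set, 10585318, differed by 0.37 (SE 0.29) and had its lowest value, 4.13, on the same array.

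Msn, which encodes moesin, had 11.15, 10.80 and 11.38 in the tetraploid cultures, and 11.45, 11.41 and 11.46 in the diploid cultures. The diploid values were nearly equal, with an SD of 0.023, and the tetraploid values spread below them with an SD of 0.29. The difference was -0.33 (SE 0.16; limma, adjusted p = 0.876, unadjusted p = 0.0908). The gap between the groups was only 0.034, and centring the arrays on their medians closed it. Without tetraploid II the difference was -0.18.

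Nf2, the merlin gene, had 8.01, 8.27 and 8.73 in the tetraploid and 8.91, 8.98 and 8.18 in the diploid cultures. Diploid I and II lay above all tetraploid values, and diploid III lay among them. Its difference was -0.35 (SE 0.29; limma, adjusted p = 0.876). It was -0.61 without diploid III, where the groups no longer overlapped, and -0.19 without tetraploid I.

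**Figure D2:**
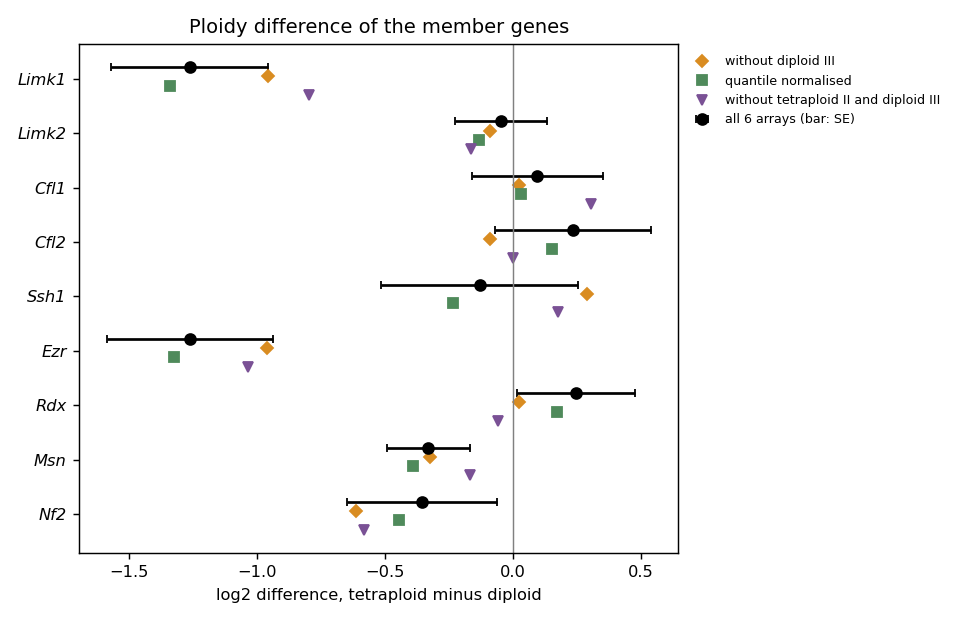
Log2 difference, tetraploid minus diploid, for each member. Black points are all 6 arrays with bars of 1 SE, and the other symbols are the values without diploid III, after quantile normalisation, and without tetraploid II and diploid III. Limk1 and Ezr lie between -1.34 and -0.80 in these 4 settings, where leaving out cultures could not turn their sign. Ssh1 and Cfl2 cross 0 without diploid III.

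Over the whole table, 0 of 25917 named probe sets (0%) had an adjusted p under 0.05 for ploidy, and so none of the members did (limma, smallest adjusted p = 0.876; 1332 probe sets at an unadjusted p under 0.05). Of the 7 members other than Limk1 and Ezr, 0 had an unadjusted p under 0.05, against 2.95% of all genes that were higher and 2.14% that were lower in the tetraploid cultures at that p. A lower mean in the tetraploid cultures was found for 6 of the 9 members and for 60.9% of all genes, dim ones included. The median difference of all genes was -0.048, and 0.024 when dim probe sets were filtered out. The groups did not overlap, with lower tetraploid values, for 3 members (Limk1, Ezr and Msn) and for 7.2% of all genes, and with higher tetraploid values for 0 members and 4.82% of genes. Only Limk1 and Ezr were at least 2-fold lower, as were 1.6% of all genes. These counts include the genes for which the set was chosen, so nothing is read from them about the set. Leaving out diploid III gave 4 members without overlap, with Nf2 added. Groups separate more easily with fewer arrays, and the share of all genes in that setting was not counted.

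The member profiles were compared by the root mean square distance between log2 values centred on each gene's mean, over the 6 arrays. Of the 36 pairs, Cfl2 and Rdx were nearest, at 0.20, with diploid III the lowest array for each. Limk1 and Ezr lay at 0.28, a closeness that their choice for the same ploidy difference favours. The paralogs were farther apart, with 0.34 for Cfl1 and Cfl2, 0.76 for Limk1 and Limk2, 0.62 for Ezr and Msn and 0.93 for Ezr and Rdx. The farthest pair was Cfl2 and Ezr, at 0.99.

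**Figure D3:**
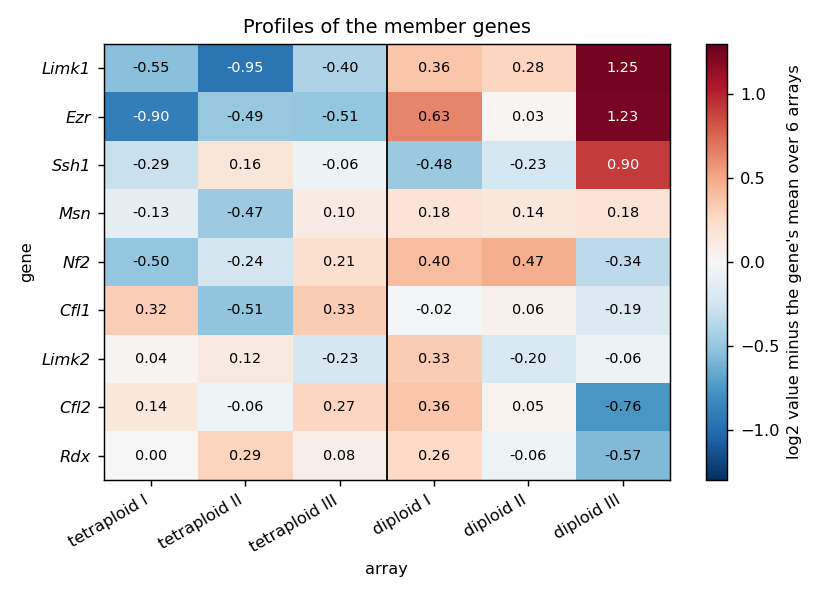
Log2 value of each member minus its own mean over the 6 arrays, printed in each cell and coloured from blue (below the mean) to red (above), with tetraploid cultures left of the line. Diploid III holds the highest cells, with Limk1 at 1.25, Ezr at 1.23 and Ssh1 at 0.90 above their means. It is also the lowest array for Cfl2 (-0.76) and Rdx (-0.57). The lowest cells are Limk1 in tetraploid II (-0.95) and Ezr in tetraploid I (-0.90).

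Diploid III had the highest value for 4 of the 9 members (Limk1, Ssh1, Ezr and Msn) and the lowest for Cfl2 and Rdx. On that array 38.5% of all genes had their highest value and 22.1% their lowest. All 9 members lay above the median of every array. After quantile normalisation, which gives all arrays the same distribution, the ploidy difference was -1.34 for Limk1 and -1.32 for Ezr.

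**Figure D4:**
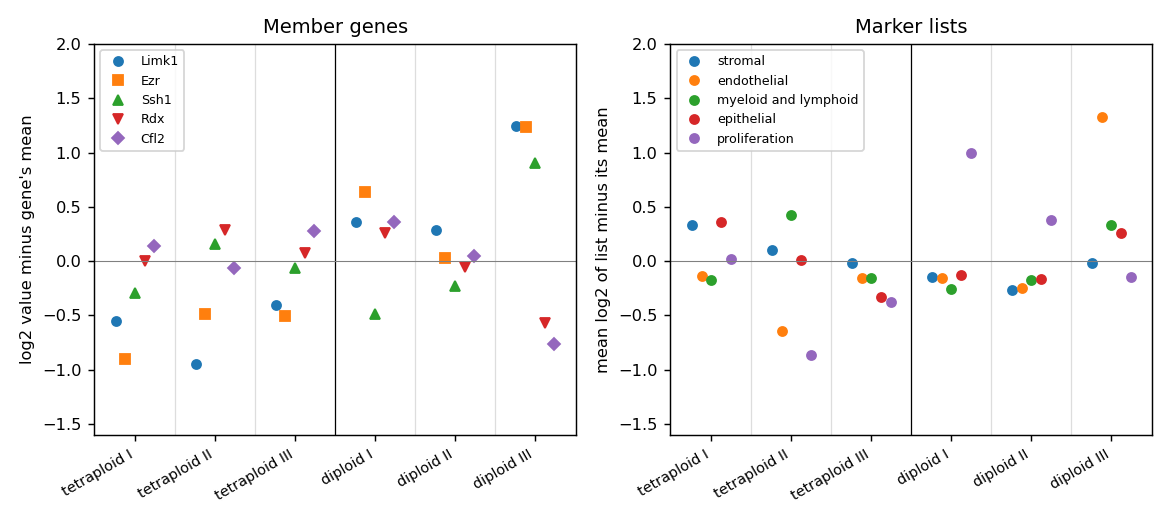
Left, log2 values of 5 members minus their means over the 6 arrays. Right, the mean log2 value of each marker list minus its mean over the arrays. The endothelial list and Limk1, Ezr and Ssh1 are highest in diploid III, and the proliferation list is highest in diploid I.

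Primary cultures were set against lines and clones with ploidy in the model, a contrast on which the members had not been chosen. For origin, 0 of 25917 probe sets (0%) passed an adjusted p under 0.05 (limma, smallest adjusted p = 0.9999; 874 at an unadjusted p under 0.05). None of the 9 members had an unadjusted p under 0.05, against 3.43% of all genes. The member with the smallest p was Rdx, lower in primary cultures by 0.38 on the log2 scale, with means of 9.27 and 9.69 (SE 0.21; limma, unadjusted p = 0.131). Nf2 had an origin difference of -0.41 (SE 0.28) and Limk1 of 0.26 (SE 0.34), and that of Msn was 0.021 (SE 0.19).

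Within each origin, the ploidy difference rests on a lone sample on one side, tetraploid I among primary cultures and diploid I among lines and clones. Limk1 differed by -1.31 in primary cultures and by -1.04 in lines and clones, and Ezr by -1.53 and -1.13. Since these genes had been chosen for groups that do not overlap, the same sign was given in advance. Msn differed by -0.28 and -0.36, and its sign too was fixed, because its groups do not overlap. Nf2 differed by -0.57 and -0.41. The sign was opposite for Limk2 (0.17 and -0.39), Cfl1 (0.38 and -0.071), Cfl2 (0.50 and -0.26), Ssh1 (-0.63 and 0.53) and Rdx (0.32 and -0.074). In the test of the difference between origins no member passed (limma, adjusted p = 0.9998 for each).

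Genes with profiles most like those of Limk1 and Ezr were sought among 11146 genes that are not members. Their means over the 6 arrays lay above the median of all genes. For Limk1 these were the histone genes H4c14 (distance 0.12 over the 6 arrays), H4c4 (0.14) and H4c2 (0.16), Glul, which encodes glutamine synthetase (0.16), and Ivns1abp, a kelch repeat gene (0.18). H4 genes are near-identical copies whose probe sets may share signal, so they are not read as independent neighbours. For Ivns1abp the dimmer probe set had a ploidy difference of -0.17, against -1.32 for the brighter. For Ezr the nearest were the mitotic phosphatase gene Cdc25b (0.20), Inhbb, which encodes an activin subunit (0.25), Hps3, a gene of lysosome-related organelles (0.25), the G1 kinase gene Cdk6 (0.26) and the DNA repair gene Ercc1 (0.28). Cdc25b differed by -0.95 at this probe set and by -0.26 at its other, dimmer one. Inhbb entered by its mean over the arrays, but its tetraploid values (4.35, 4.27 and 4.51) lay below the medians of those arrays. There were 19 genes nearer to Limk1 than Ezr was, with each H4 gene counted, and 5 genes nearer to Ezr than Limk1 was.

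Partner genes of the members were described by lists, beside a median ploidy difference of -0.048 over all genes. That median depends on dim genes, and was 0.024 when dim probe sets were filtered out. A lower mean in the tetraploid cultures was found for 60.9% of all genes, dim ones included. The named genes have the smallest p-values of their list, which favours groups that do not overlap. For all genes, the groups did not overlap in 4.82% with higher and in 7.2% with lower tetraploid values. No list was tested as a whole. Of 18 kinases and GTPases that act upstream of LIM kinase or of cofilin, Tesk1 and Tesk2 among them, 12 had a higher and 6 a lower mean in the tetraploid cultures. The median difference was 0.12, and 1 gene in each direction had an unadjusted p under 0.05, against 2.95% higher and 2.14% lower of all genes. Pak3, a p21-activated kinase known mainly from neurons, had 8.05, 7.71 and 8.10 in the tetraploid and 6.54, 7.09 and 5.73 in the diploid cultures. All its tetraploid values lay above all diploid values, a difference of 1.50 (SE 0.36; limma, adjusted p = 0.876). Mapkapk2, a stress kinase that can phosphorylate LIM kinase 1, differed by -0.51 (SE 0.20), and Bmpr2, a BMP receptor whose tail binds LIM kinase 1, by 0.38 (SE 0.15). On leaving out 1 culture in turn, 1 to 3 genes of the list were higher and 0 to 1 lower at that p, with 3 higher and 1 lower without diploid III.

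Of 19 relatives, partners and phosphatases of cofilin, 11 were higher and 8 lower. The median difference was 0.065, and 1 higher and 0 lower had an unadjusted p under 0.05, against 2.95% and 2.14% of all genes. Wdr1, which speeds the disassembly of cofilin-bound filaments, had 11.16, 11.14 and 10.90 in the tetraploid and 10.34, 10.61 and 10.84 in the diploid cultures. Its groups did not overlap, by a narrow margin, and the difference was 0.47 (SE 0.16; limma, adjusted p = 0.876). In the list the groups did not overlap for 2 genes higher and 0 lower, against 4.82% and 7.2% of all genes. Twf1, a twinfilin that binds actin monomers, differed by 0.38 (SE 0.15), Gmfb, a relative of cofilin, by 0.31 (SE 0.18), and Ssh3, another slingshot phosphatase, by 0.83 (SE 0.52). As with Ssh1, diploid III had the highest Ssh3 value, 7.51. At that p, the genes higher numbered 0 without any 1 of tetraploid I, tetraploid II, diploid I and diploid II, 2 without diploid III and 3 without tetraploid III, and those lower 0 to 2.

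Of 18 measured membrane partners and kinases of the ERM proteins, 8 were higher and 10 lower. The median difference was -0.098, and 0 genes had an unadjusted p under 0.05, against 2.95% higher and 2.14% lower of all genes. On leaving out 1 culture, 0 to 2 genes were higher and 0 to 1 lower at that p. The smallest p-values were those of Grk2, a receptor kinase that phosphorylates ezrin and radixin (-0.41, SE 0.17), Ppp1r12a, the targeting subunit of myosin phosphatase, which dephosphorylates moesin (0.79, SE 0.32), Slk, a kinase that activates ERM proteins (0.61, SE 0.26), and Sdc2, a syndecan (0.80, SE 0.38).

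Of 17 merlin partners of the Hippo pathway, 9 were higher and 8 lower. The median difference was 0.16, and 2 higher and 0 lower had an unadjusted p under 0.05, against 2.95% and 2.14% of all genes. These 2 genes, Mob1b and Sav1, encode cofactors of the Hippo kinases. Mob1b had 8.09, 8.58 and 7.98 in the tetraploid and 7.52, 7.63 and 7.39 in the diploid cultures, a difference of 0.70 (SE 0.18; limma, adjusted p = 0.876). Sav1 differed by 0.52 (SE 0.14), the kinase gene Lats1 by 0.67 (SE 0.31), and Mob1a by 1.01 (SE 0.53). The groups did not overlap for Mob1b, Sav1 and Lats1, and overlapped for Mob1a. In the list they did not overlap for 3 genes higher and 0 lower, against 4.82% and 7.2% of all genes. On leaving out 1 culture, 2 to 3 genes of the list were higher and 0 lower at that p.

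Of 28 other genes with a FERM domain, 14 were higher and 14 lower. The median difference was -0.048, and 4 higher and 1 lower had an unadjusted p under 0.05, against 2.95% and 2.14% of all genes. Epb41l2 and Epb41l3, which encode proteins of the membrane skeleton, differed by 1.004 (SE 0.24) and 1.25 (SE 0.38). The exchange factor genes Farp2 and Farp1 went in opposite directions, by 0.82 (SE 0.22) and -0.78 (SE 0.26), each without overlap between the groups. All 4 had an adjusted p of 0.876 (limma). In the list the groups did not overlap for 3 genes higher and 2 lower, against 4.82% and 7.2% of all genes. On leaving out 1 culture, 2 to 5 genes of the list were higher and 0 to 2 lower at an unadjusted p under 0.05, with 4 and 0 without diploid III.

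Of 55 actin filament genes, 32 were higher and 23 lower. The median difference was 0.036, and 4 higher and 3 lower had an unadjusted p under 0.05, against 2.95% and 2.14% of all genes. Lima1, which encodes a protein that bundles and stabilises filaments, had 10.01, 10.18 and 9.84 in the tetraploid and 8.86, 9.26 and 9.23 in the diploid cultures, a difference of 0.90 (SE 0.16; limma, adjusted p = 0.876). Arpc5, a subunit gene of the Arp2/3 complex that branches filaments, differed by 0.86 (SE 0.18), and Cnn2, a calponin gene, by 0.76 (SE 0.22), while Myl12b, a myosin light chain gene, differed by -0.68 (SE 0.21). The groups did not overlap for any of these 4 genes. In the list this held for 6 genes higher and 2 lower in the tetraploid cultures, against 4.82% and 7.2% of all genes. On leaving out 1 culture, 3 to 6 genes were higher and 0 to 7 lower at that p. The split was 6 higher and 1 lower without diploid III, 6 and 7 without tetraploid III, and 4 and 0 without tetraploid I.

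**Figure D5:**
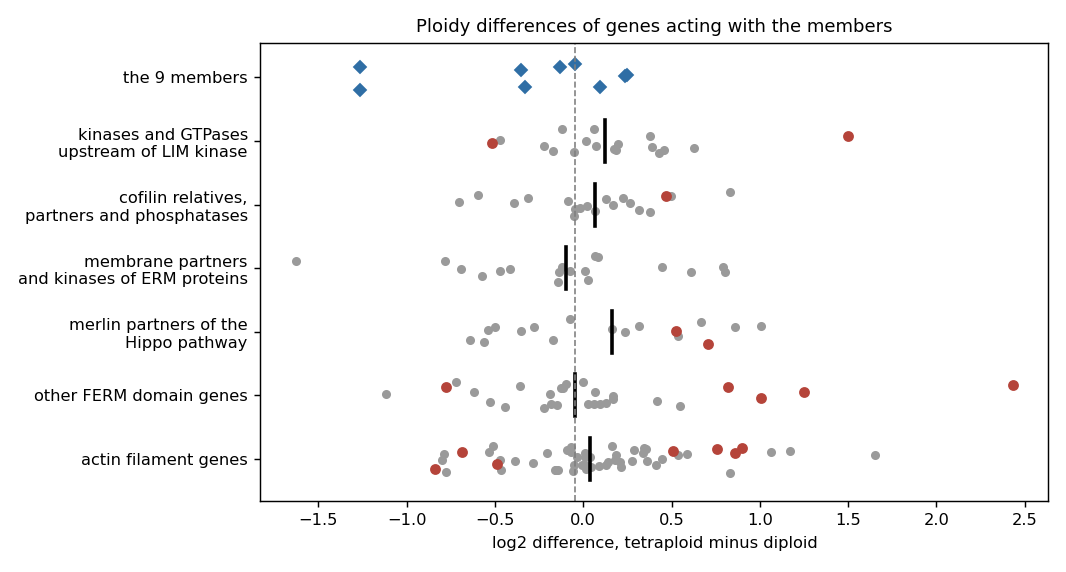
Ploidy difference on the log2 scale of each gene in the 6 lists and of the 9 members (blue diamonds). Red points have an unadjusted p under 0.05, black bars are list medians and the dashed line is the median of all genes, -0.048. The list medians lie between -0.098 and 0.16, and genes past the unadjusted threshold lie on either side of 0 in 3 lists.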

How the data were processed

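The values were the authors' deposited log2 expression per probe set, made with RMA and Partek per the submitters' processing notes, which give no versions. The authors' deposited comparison table gave the gene symbols, a signed fold, diploid over tetraploid, with its p-value, and its 6 columns of per-sample values with other names were not used. The platform was an Affymetrix array with biotin-labelled total RNA, per the labels, and the build behind its probe sets is not given in the sources used here.

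Of 22349 symbols in the file, 19017 were current in RefSeq (GRCm38.p6), 2383 were matched as a synonym and 949 kept. All 25917 named probe sets were fitted with limma 3.58.1 in R 4.3.3 (lmFit, eBayes; two-sided, Benjamini-Hochberg), with ploidy alone, with ploidy and origin, and with a mean per ploidy and origin. The number of arrays limits the precision, and an exact permutation test of 3 against 3 cannot give a p under 0.1. A run on simulated data with planted differences checked that the fits returned their mean size. It is not used here as a measure of power. The members and lists were chosen with earlier results of these data known. Of 19 listed ERM partners, 18 were measured. The genes named outside the members were the first 4 of each list by p-value and the 5 nearest in profile to Limk1 and to Ezr. One gene that this rule names is not reported here. Same-numbered cultures did not deviate together (correlations of -0.117, -0.149 and -0.337), and the main fits did not pair them. Cultures with unlike numbers had correlations of -0.159 to 0.307. Deviations of 3 cultures from their mean sum to 0, so these correlations cannot exclude a pairing. The alternatives were other normalisations, centring, filters, variance models, probe set choices, covariates and sets of arrays. Figures used matplotlib 3.10.9 in Python 3.11.15.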

Additional observations from a re-analysis of the deposited data

Results flagged for a closer look

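For 3 members the primary cultures and the lines and clones moved in opposite directions in every comparison of a tetraploid with a diploid culture of the same origin. How many of all genes meet the same rule was not counted, so nothing is read from this number. The ploidy difference in primary cultures minus that in lines and clones was 0.56 on the log2 scale for Limk2, 0.75 for Cfl2 and -1.16 for Ssh1. The test of that difference gave unadjusted p-values of 0.180, 0.287 and 0.213, and an adjusted p = 0.9998 for each (limma). For Cfl2 and Ssh1, diploid III held the most extreme value of the primary cultures. Single arrays could not be screened for outlying values within groups, since each group held 3.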

How the results depend on the processing

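Limk1 and Ezr were lower in the tetraploid cultures in all 20 alternatives. Both had been chosen for this difference, so the count is no support for it. Leaving out cultures cannot turn the sign of groups that do not overlap. A change of variance model alone leaves the difference as it was. Limk1 ranged from -1.44 (without diploid II) to -0.96 (without diploid III) on leaving out 1 culture, and was -0.80 without tetraploid II and diploid III, a setting added after seeing the data. Ezr ranged from -1.56 to -0.96 over all alternatives. The count of members lower in the tetraploid cultures was 5 to 7, and that of members without overlap 2 to 4. The shares of all genes in these settings were not counted. With the replicate number as a block, 1212 genes had an unadjusted p under 0.05 for ploidy, against 1136, and 0 probe sets an adjusted p under 0.05. In the lists, the block moved the genes at an unadjusted p under 0.05 from 0 higher and 0 lower to 2 and 1 among ERM partners. It moved them from 1 to 2 higher upstream of LIM kinase or of cofilin, and from 1 to 3 lower among other FERM domain genes.

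Of the 7 members tested for ploidy, none had an adjusted p under 0.05 in any alternative (smallest 0.569, for Nf2). Over all probe sets, 0 passed for ploidy, except 1 without tetraploid III and 1 without diploid II, and 0 for origin throughout. The count of genes at an unadjusted p under 0.05 for ploidy was 661 to 1694 on leaving out 1 culture, 715 when dim probe sets were filtered out and 1916 with array weights. For origin it was 765, 497 to 1465 on leaving out 1 culture, 448 with the filter, 1609 with weights and 1480 without tetraploid II and diploid III. The filter tests fewer genes, and the other causes were not tested.

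Signs turned for differences near 0. On leaving out 1 culture, the ploidy difference was -0.16 to 0.11 for Limk2, -0.048 to 0.37 for Cfl1, -0.088 to 0.47 for Cfl2 and -0.40 to 0.29 for Ssh1. With array weights it was -0.019 for Cfl2 and 0.20 for Ssh1, and without tetraploid II and diploid III it was 0.18 for Ssh1 and -0.059 for Rdx. The origin difference on leaving out 1 culture was -0.47 to 0.096 for Limk2, -0.047 to 0.41 for Cfl1, -0.72 to 0.031 for Cfl2, -0.34 to 0.82 for Ssh1, -0.49 to 0.029 for Ezr and -0.11 to 0.14 for Msn. For Msn it was -0.019 with arrays centred on the median, -0.026 with weights and -0.13 without tetraploid II and diploid III, where it was -0.11 for Limk1. Centring on the 75th percentile moved the median ploidy difference of all genes to -0.13, and filtering out dim probe sets moved it to 0.024.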
